A study of Homo sapiens with 26 samples.

Results

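The calcium handling genes of the cardiomyocyte are described here as 10 genes: RYR2, TRDN, CASQ2, JPH2, BIN1, ATP2A2, PLN, SLN, SLC8A1 and STIM1. They were chosen by symbol, with no measured value in the rule, from 22688 gene names in the 3 deposited count tables. Earlier results of these data were known when they were chosen. All 10 had a row in the cardiomyocyte table. Of these, 9 had a row in each macrophage table, and SLN was not analysed there.

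RNA was sequenced from 26 libraries of human embryonic stem cell derived cells in 8 groups. The cardiomyocytes (CM) came from the ESI17 line and the macrophages (MF) from the hES2 line, both labelled as wild type. Cells had been built into Biowires, engineered cardiac microtissues, in combinations that also name FB cells, a label that the sources do not spell out. On day 3, cardiomyocytes were collected by sorting from tissue of CM+FB and of CM+FB+MF, with 4 libraries each. Macrophages were sorted on day 14 from MF, FB+MF and CM+FB+MF tissue, with 3 libraries each. A further 3 libraries for each of these 3 combinations are labelled as digested control macrophages, with no day of culture. All groups share the enzyme digestion of 40 min with flavopiridol, a transcription inhibitor, and staining for CD14 and CD45 before the sort. The sources used here do not state how cardiomyocytes were gated. Each cell type stands for 1 line, and no label says that replicates came from separate cultures. A p-value therefore reflects library-to-library spread, which may be technical.

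In the heart, calcium that enters through the L-type channel opens the ryanodine receptor RYR2, and the sarcoplasmic reticulum releases its store onto the myofilaments. Contraction ends when the pump SERCA2 (ATP2A2) returns calcium to the reticulum, held back by the small inhibitors phospholamban (PLN) and sarcolipin (SLN), and when the exchanger SLC8A1 moves the remainder out of the cell. Junctophilin 2 (JPH2) and BIN1 shape the dyad, where surface membrane and reticulum meet, and STIM1 senses an empty store. ATP2A2, BIN1 and STIM1 are also expressed in many cells that are not muscle.

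Promoter sequences are shown because some of the 10 genes were well read in every group and others stood at or near 0 in Biowire macrophages kept without cardiomyocytes. RefSeq promoters (GRCh38.p14) were matched for 9 of the 10 genes, and SLN is named only. The 150 bases before the annotated start are printed 5′ to 3′ in the direction of transcription, with each CpG dinucleotide in capitals. For STIM1 the first of 4 listed starts is shown.
PLN (chr6:118548146-118548295, + strand): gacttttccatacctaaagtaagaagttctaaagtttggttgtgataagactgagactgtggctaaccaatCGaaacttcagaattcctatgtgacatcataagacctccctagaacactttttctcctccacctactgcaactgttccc
TRDN (chr6:123636951-123637100, - strand): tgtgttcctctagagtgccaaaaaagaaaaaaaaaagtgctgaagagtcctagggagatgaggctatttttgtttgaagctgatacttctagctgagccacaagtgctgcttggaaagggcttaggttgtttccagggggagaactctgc
RYR2 (chr1:237042034-237042183, + strand): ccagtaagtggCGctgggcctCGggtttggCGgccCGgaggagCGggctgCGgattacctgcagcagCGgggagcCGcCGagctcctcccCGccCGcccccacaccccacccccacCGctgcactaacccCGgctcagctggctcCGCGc
BIN1 (chr2:127107155-127107304, - strand): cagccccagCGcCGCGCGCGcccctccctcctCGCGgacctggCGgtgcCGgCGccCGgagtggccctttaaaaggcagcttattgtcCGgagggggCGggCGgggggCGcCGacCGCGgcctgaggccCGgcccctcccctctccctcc
STIM1 (chr11:3855514-3855663, + strand): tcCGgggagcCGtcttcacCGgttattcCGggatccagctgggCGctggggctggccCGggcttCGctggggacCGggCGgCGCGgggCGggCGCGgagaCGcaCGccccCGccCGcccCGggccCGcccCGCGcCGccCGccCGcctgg
PLN had 1 CpG in this window and TRDN had 0, against a median of 7 over all RefSeq promoter windows of the same length. BIN1 had 19 and STIM1 had 25, and both were read in all 8 groups. RYR2 had 15 CpGs, yet no count in macrophages kept without cardiomyocytes. The CpG count therefore did not separate the genes by where they were read. A further window shows the first of 2 listed ATP2A2 promoters with the letters of 2 overlapping matches to the motif of MEF2, a muscle transcription factor, in capitals.
ATP2A2 (chr12:110280466-110280615, + strand): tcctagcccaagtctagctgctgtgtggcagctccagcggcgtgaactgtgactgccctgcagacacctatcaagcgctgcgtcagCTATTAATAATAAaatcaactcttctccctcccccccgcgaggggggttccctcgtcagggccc
Over the 250 bases before each start, on both strands, the MEF2 motif was matched in 2 of the 9 genes, ATP2A2 and CASQ2, and in 2.8% of all 35116 promoters. The CArG motif was matched in 0 of 9 (1.16% of all promoters) and the GATA motif AGATAA in 2 of 9 (9.17%). MCAT (CATTCC) was matched in 1 of 9 (11.9%), the E-box CANNTG in 8 of 9 (61.8%) and TATAAA in 1 of 9 (10.7%). A gene counted as matched if any of its listed promoters matched, while the percentages count each promoter on its own. The shares are therefore in unlike units, and genes with several listed promoters had more chances to match. A match describes the letters and says nothing of binding.

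Depth was 12604684 to 30936910 counts per cardiomyocyte library and 6983800 to 13665322 per macrophage library. Levels are in CPM, a gene's count scaled to the library total in the usual way, and carry the SD over libraries. The 12 cardiomyocyte markers summed to 126880 to 145380 CPM in the cardiomyocyte libraries, and the 14 macrophage markers to 11354 to 17142 CPM in the macrophage libraries, which fits the labelled cell types. In bulk RNA fewer cells of a type and less RNA per cell cannot be told apart.

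The first comparison asked how calcium handling genes of day 3 cardiomyocytes differed when macrophages were part of the tissue. Of the 10 genes, 6 were lower in CM+FB+MF than in CM+FB cardiomyocytes and 0 were higher by edgeR at adjusted p under 0.05. BIN1, CASQ2, SLN and STIM1 showed the larger falls, and TRDN and JPH2 smaller ones. RYR2, ATP2A2, PLN and SLC8A1, 4 of the abundant genes, did not pass the test. Without adjustment 3 of these 4, RYR2, ATP2A2 and PLN, had p under 0.05 in the higher direction, and DESeq2 called 7 of the 10, PLN among them. Over all 16046 genes tested, 12.7% were called, 6.79% higher and 5.88% lower. The median log2 fold change was -0.20 over the 10 genes and 0.02 over all genes tested. Each fold change is given on the log2 scale with its SE, after TMM normalization.

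**Figure D1:**
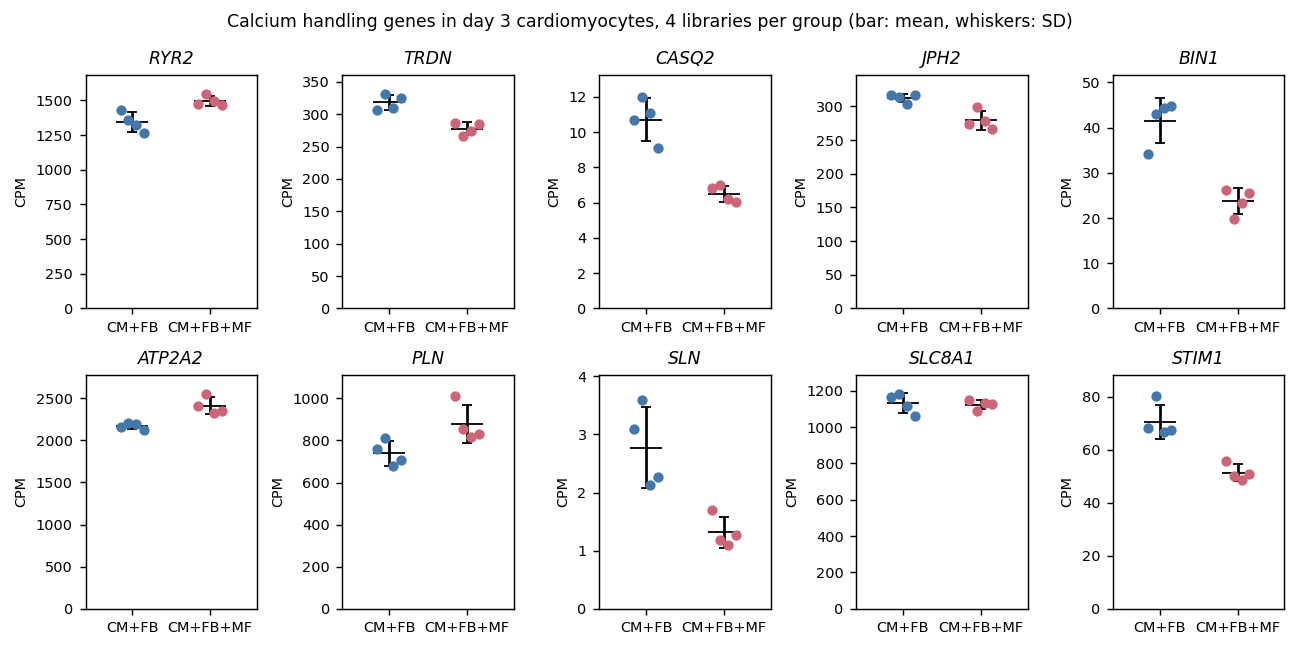
Level of each of the 10 genes in CPM (vertical axis, from 0) in the 4 CM+FB and 4 CM+FB+MF cardiomyocyte libraries, with points for libraries, a bar for the mean and whiskers for the SD. BIN1, CASQ2, SLN and STIM1 lie lower in every CM+FB+MF library than in any CM+FB library, while the SLC8A1 groups overlap.

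Among the genes of the release unit, RYR2 encodes the channel itself. RYR2 stood at 1431, 1359.5, 1320.3 and 1267 CPM in the CM+FB libraries and at 1471, 1547, 1497 and 1468 CPM with macrophages. Every library with macrophages was higher, by a small step, and the log2 difference of 0.14 ± 0.05 did not pass (edgeR adjusted p = 0.122). TRDN, triadin, anchors calsequestrin to the channel. It was at 306, 331, 310.03 and 325 CPM without macrophages and at 286, 266, 274 and 285 CPM with them. TRDN fell by 0.21 on the log2 scale (SE 0.05, edgeR adjusted p = 0.0166). The groups did not overlap, but adjusted p was 0.0607 without CM+FB replicate 4 and 0.0524 without CM+FB+MF replicate 2. CASQ2, the main calcium buffer of the cardiac reticulum, was low for a gene of this unit. It measured 10.7, 11.985, 11.1 and 9.10 CPM in CM+FB and 6.81, 6.98, 6.21 and 6.03 CPM in CM+FB+MF. CASQ2 fell by 0.73 on the log2 scale (SE 0.12, edgeR adjusted p = 0.00121), and the 4 libraries with macrophages lay close together below the others.

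At the dyad, JPH2 tethers the reticulum to the surface membrane. JPH2 was at 316, 314.5, 304 and 317 CPM in CM+FB and at 274, 299, 278 and 266 CPM in CM+FB+MF. It fell by 0.18 on the log2 scale (SE 0.05, edgeR adjusted p = 0.0272) with no overlap between groups. This call was lost when any of 5 libraries was left out (CM+FB replicate 1 or 4, or CM+FB+MF replicate 1, 3 or 4), with adjusted p from 0.0557 to 0.0833. BIN1, which bends membrane into T-tubules, showed the smallest adjusted p of the 10 genes. Its levels were 34.1, 42.9, 44.4 and 44.8 CPM without macrophages and 26.3, 19.8, 23.4 and 25.5 CPM with them. The lowest CM+FB library, replicate 1, still lay above the highest CM+FB+MF library. BIN1 fell by 0.83 on the log2 scale (SE 0.11, edgeR adjusted p = 0.000197), from 41.5 ± 5.04 to 23.8 ± 2.91 CPM (n = 4 each).

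For the pump and its inhibitors the direction was mixed. ATP2A2 was at 2156, 2206, 2188 and 2128 CPM in CM+FB and at 2413, 2550.2, 2327 and 2344 CPM in CM+FB+MF. Every library with macrophages was higher, and the log2 difference of 0.13 ± 0.05 did not pass (edgeR adjusted p = 0.102). PLN was at 758, 812, 679 and 708 CPM without macrophages and at 1013, 855, 818 and 831 CPM with them. Here too the groups did not overlap, with CM+FB+MF replicate 1 standing above its group. The PLN difference of 0.23 ± 0.08 had edgeR adjusted p = 0.0620, and it passed without CM+FB replicate 2 (0.0385), without CM+FB+MF replicate 3 (0.0387) and with DESeq2 (0.0414). SLN, the inhibitor typical of atrial muscle, rested on few counts, 85, 106, 60 and 62 in CM+FB and 50, 30, 34 and 16 in CM+FB+MF. Those counts correspond to 2.77 ± 0.697 and 1.31 ± 0.269 CPM, and no library with macrophages reached the lowest without. SLN fell by 1.09 on the log2 scale (SE 0.27, edgeR adjusted p = 0.0154), with adjusted p = 0.0501 when CM+FB replicate 2, its highest library, was left out.

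The exchanger SLC8A1 was at 1169, 1182, 1116 and 1063 CPM in CM+FB and at 1149, 1088, 1132 and 1130.1 CPM in CM+FB+MF. The groups overlapped, with a log2 difference of -0.03 ± 0.05 (edgeR adjusted p = 0.828). STIM1 was at 68.1, 80.1, 66.7 and 67.3 CPM without macrophages and at 55.7, 50.2, 48.4 and 50.9 CPM with them. It fell by 0.48 on the log2 scale (SE 0.07, edgeR adjusted p = 0.000732), and CM+FB replicate 2 stood above the other 3 libraries of its group.

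Markers of other cells moved with this comparison. Of 14 macrophage markers, 10 passed the filter and all 10 of these rose, beside 6.79% of all genes tested. A marker can pass the filter through the CM+FB+MF group alone, so nothing is read from this count. The sum over the whole list was 6.01 to 8.27 CPM without macrophages, with C1QA at 0, and 32.0 to 84.3 CPM with them. Fibroblast markers summed to 3147 to 5453 CPM in CM+FB and 3492 to 6504 CPM in CM+FB+MF, and 2 of the 11 tested were higher. Of the 12 cardiomyocyte markers 2 were higher and 2 lower. The part of these shifts in the results above was not tested.

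Levels of different genes were compared per kilobase of annotated exon. On that scale PLN ranked first in CM+FB cardiomyocytes at 369 ± 29.2 CPM per kb, followed by ATP2A2 at 158 ± 2.502 and RYR2 at 75.6 ± 3.90. JPH2 (52.7 ± 1.01), SLC8A1 (51.7 ± 2.48) and TRDN (47.5 ± 1.80) came next, and libraries of neighbours in this order overlapped. STIM1 (9.89 ± 0.895), BIN1 (5.995 ± 0.727), CASQ2 (3.87 ± 0.437) and SLN (3.06 ± 0.769) were the lowest, with CASQ2 and SLN overlapping. With the longest transcript as the length, ATP2A2 stood at 380.5 and PLN at 369 CPM per kb, so their order reversed there, but not in CM+FB+MF, where they stood at 422 and 439.5 CPM per kb. In CM+FB+MF cardiomyocytes the first 3 ranks were the same genes, with PLN at 439.5 ± 45.1 CPM per kb of exon, and the last 4 were STIM1 (7.20 ± 0.438), BIN1 (3.43 ± 0.420), CASQ2 (2.35 ± 0.167) and SLN (1.45 ± 0.296).

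Ratios between partners, per kb and within a library, put the changes side by side as a description. SLN amounted to 0.820 ± 0.143% of PLN in CM+FB and to 0.328 ± 0.0338% in CM+FB+MF. PLN per ATP2A2 was 234 ± 17.0% and 251 ± 25.6%, with overlapping libraries. RYR2 per ATP2A2 was 47.9 ± 2.37% and 48.0 ± 1.30%, again overlapping. The size of these ratios depends on the length used, here the annotated exon. With the longest transcript, CM+FB means were 369 CPM per kb for PLN, 380.5 for ATP2A2 and 81.2 for RYR2. Relative to RYR2, its release partners were lower with macrophages: CASQ2 went from 5.11 ± 0.497% to 2.79 ± 0.168% and TRDN from 63.0 ± 4.80% to 49.4 ± 2.85%. JPH2 per RYR2 went from 69.8 ± 3.68% to 55.9 ± 1.43%. CASQ2, TRDN and JPH2 were lower, and RYR2 higher, in every CM+FB+MF library than in any CM+FB library. These 3 ratios therefore had to separate the groups, and nothing further is read from that. The RYR2 difference itself did not pass (edgeR adjusted p = 0.122).

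Beyond the 10 genes, 71 further calcium genes were listed by role, of which 67 were tested. In CM+FB+MF against CM+FB cardiomyocytes 10 were higher and 12 lower, beside 6.79% and 5.88% of all genes, with a median log2 fold change of -0.00. Among the channels that admit calcium, the T-type subunit CACNA1G rose from 212 to 329 CPM (0.62 ± 0.07, edgeR adjusted p = 8.71e-05), and it was the only call among 6. Release unit partners gave 2 higher and 3 lower of 14. The kinase subunit CAMK2G (-0.38 ± 0.07) and the anchoring protein AKAP6 (-0.25 ± 0.05) fell, and the phosphatase targeting subunit PPP1R3A rose (0.83 ± 0.17). Of 5 other release channels, the inositol trisphosphate receptor ITPR2 (0.49 ± 0.10) and RYR3 (0.47 ± 0.11) rose, and RYR1, the skeletal muscle receptor, fell (-0.40 ± 0.10).

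Genes of the dyad and T-tubule other than JPH2 and BIN1 gave 0 higher and 3 lower of 7. The membrane repair protein DYSF fell from 424 to 334 CPM (-0.36 ± 0.05, edgeR adjusted p = 0.000211). CMYA5 fell from 811 to 571 CPM (-0.52 ± 0.11) and JPH3, a junctophilin known from neurons, from 23.0 to 18.2 CPM (-0.36 ± 0.10). In the pump family ATP2A3 rose from 3.64 to 7.001 CPM (0.92 ± 0.16), the 1 call among 3. Pump phosphorylation genes gave 2 higher and 1 lower of 6, with PPP1R1A, a phosphatase inhibitor, up (0.38 ± 0.08) and PRKAR1A, a regulatory subunit of protein kinase A, down (-0.26 ± 0.05). Its catalytic partner PRKACA passed narrowly (0.19 ± 0.06, edgeR adjusted p = 0.0494).

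Calcium extrusion genes gave 1 higher and 2 lower of 5. The exchanger SLC8A3 fell from 1.80 to 0.343 CPM (-2.40 ± 0.49), the plasma membrane pump ATP2B1 fell (-0.59 ± 0.10) and its relative ATP2B2 rose (0.95 ± 0.17). The filter here asked for 0.359 CPM in at least 4 libraries, and the SLC8A3 mean in CM+FB+MF lay under that. SLC8A3 could not have passed through that group alone, so its fall is not read as a result. Store-operated entry gave 1 higher and 2 lower of 7 in addition to STIM1. The channel gene ORAI2 fell (50.8 to 31.9 CPM, -0.69 ± 0.08), while the sensor STIM2 rose (0.31 ± 0.09). Of 7 reticulum buffers and 7 mitochondrial uptake genes tested, 0 were called in either list by edgeR, with 2 and 1 at an unadjusted p under 0.05.

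**Figure D2:**
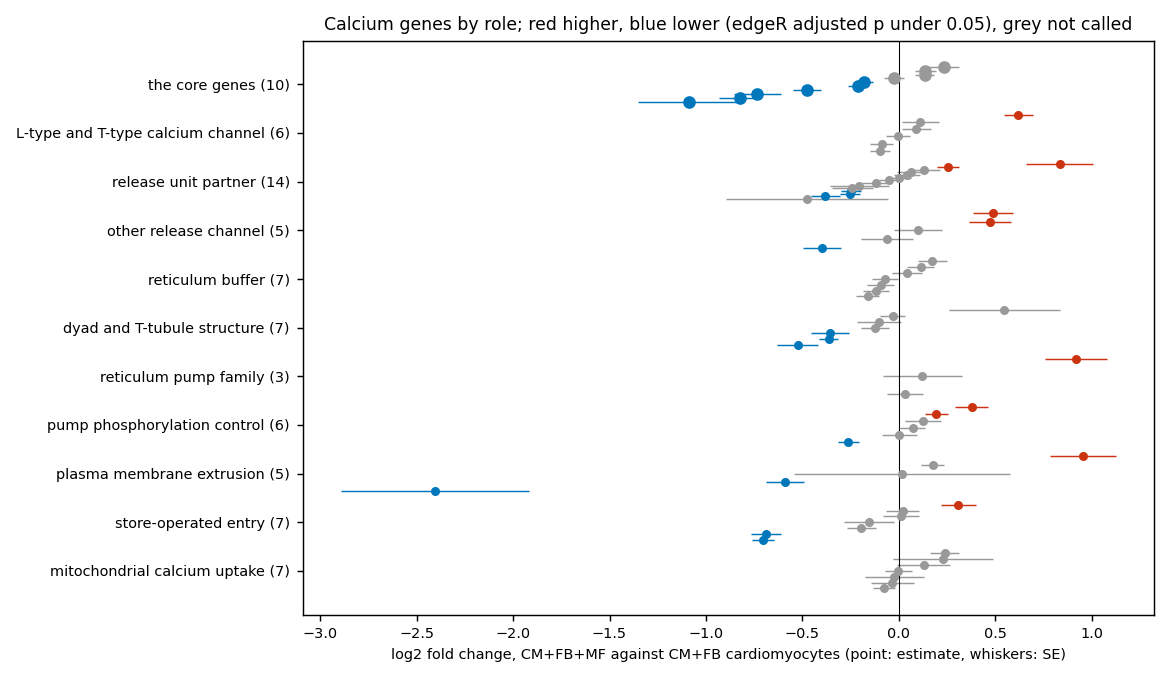
Log2 fold change of CM+FB+MF against CM+FB cardiomyocytes (horizontal axis) for the 10 core genes and 67 further calcium genes by role, with whiskers for the SE and the number tested in brackets. Red marks calls higher and blue calls lower at edgeR adjusted p under 0.05. Called points of the 10 core genes and of the dyad list lie left of 0, and the other lists hold calls on both sides or 0 to 1 call.

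The macrophage comparisons asked which of these transcripts were read in sorted macrophages and whether that depended on their tissue. In Biowire macrophages 8 of the 9 genes with a row passed the filter on low counts. The filter asked for 0.971 CPM in at least 3 libraries. RYR2, JPH2 and TRDN met it only through the CM+FB+MF group, so they had to differ and no test is read for them, and CASQ2 did not pass.

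RYR2 had 0 counts in all 3 MF and all 3 FB+MF libraries. In the CM+FB+MF macrophages it stood at 25.1, 47.5 and 34.9 CPM, from 186, 382 and 244 counts. Against a floor of 3 counts over the group, that mean of 35.8 ± 11.3 CPM was at least 408-fold higher than in FB+MF and at least 385-fold higher than in MF macrophages. Floors cover counting error only. TRDN was at 0.402, 0.750 and 0 CPM in FB+MF and at 3.23, 7.21 and 7.30 CPM in CM+FB+MF. Without cardiomyocytes TRDN stayed at or below 1.45 CPM in each of the 6 Biowire libraries, and the groups did not overlap. CASQ2 gave 0, 4 and 2 counts in the CM+FB+MF libraries and 0 in the other 6.

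JPH2 had 0 counts without cardiomyocytes and 17, 14 and 30 counts in CM+FB+MF macrophages. Its mean of 2.78 ± 1.34 CPM was at least 31.6-fold higher than in FB+MF. BIN1 behaved otherwise, being read in every macrophage group, with means of 61.0 ± 4.95 CPM (MF), 62.7 ± 9.19 CPM (FB+MF) and 55.8 ± 6.01 CPM (CM+FB+MF). These groups overlapped, and no BIN1 difference passed (edgeR adjusted p = 0.251 for CM+FB+MF against FB+MF).

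ATP2A2 was the 1 gene of the 9 called between FB+MF and MF Biowire macrophages, a comparison in which 6.16% of 13952 genes were called, 4.03% higher and 2.14% lower. It was at 216, 246 and 212 CPM in MF, at 364, 299 and 308 CPM in FB+MF and at 237, 264 and 229 CPM in CM+FB+MF. All FB+MF libraries lay above all others, and MF and CM+FB+MF overlapped. ATP2A2 rose in FB+MF against MF (0.56 ± 0.11, edgeR adjusted p = 0.00898), a call lost without MF replicate 3 (0.0553). Other markers moved with this comparison: the fibroblast list summed to 67.5 to 193 CPM in MF and 272 to 331 CPM in FB+MF, with 3 of 9 tested higher, and the macrophage list to 11354 to 13061 and 15579 to 17142 CPM, with 7 of 14 higher. Their part in the ATP2A2 result was not tested. In CM+FB+MF against FB+MF it fell (-0.45 ± 0.11, edgeR adjusted p = 0.00754). CM+FB+MF against MF gave 0.11 ± 0.11 (edgeR adjusted p = 0.499).

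PLN was at 0.121, 2.41 and 1.26 CPM in MF, at 0.161, 0.844 and 2.07 CPM in FB+MF and at 5.93, 15.7 and 8.88 CPM in CM+FB+MF macrophages. Every CM+FB+MF library was above the other 6, and among those 6 the level varied widely on 1 to 33 counts. PLN lies within CEP85L, a gene of the other strand with which it shares no exon, and CEP85L averaged 19.1 CPM in this table. PLN rose against FB+MF (3.27 ± 0.80, edgeR adjusted p = 0.00616) and against MF (2.93 ± 0.78, edgeR adjusted p = 0.00909). Without FB+MF replicate 3 the first value was 4.29, and without MF replicate 2 the second was 3.80. The second of these calls had adjusted p = 0.0553 without CM+FB+MF replicate 2.

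SLC8A1 was read in every macrophage library. Its levels were 38.2, 61.8 and 45.6 CPM in MF, 34.2, 46.0 and 36.3 CPM in FB+MF and 124, 145 and 159 CPM in CM+FB+MF. The CM+FB+MF libraries lay well above the other 6, of which the highest was MF replicate 2. SLC8A1 rose against FB+MF (1.84 ± 0.17, edgeR adjusted p = 2.44e-06) and against MF (1.54 ± 0.17, edgeR adjusted p = 7.33e-06). Both calls were kept in every alternative fit run for them, including each library left out. SLC8A1 shares 2040 bases of exon with SLC8A1-AS1 on the other strand, 9.31% of its exons. Whether counting used the strand is unstated, so reads in that stretch cannot be assigned with certainty. SLC8A1-AS1 itself averaged 2.43 CPM in this table. STIM1 was at 120 ± 8.56 CPM in MF, 134 ± 11.3 CPM in FB+MF and 114 ± 6.18 CPM in CM+FB+MF, and the fall from FB+MF to CM+FB+MF missed the threshold (-0.27 ± 0.11, edgeR adjusted p = 0.0589).

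In CM+FB+MF against FB+MF Biowire macrophages, 5 of the 9 genes were called higher (RYR2, JPH2, TRDN, PLN and SLC8A1) and 1 lower (ATP2A2), where 16.4% and 19.1% of all genes tested were, 35.5% in all. Against MF, 5 were higher and 0 lower, beside 17.8% and 19.8% of all genes, 37.6% in all. RYR2, JPH2 and TRDN are in both counts through the filter, so nothing is read from these totals.

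**Figure D3:**
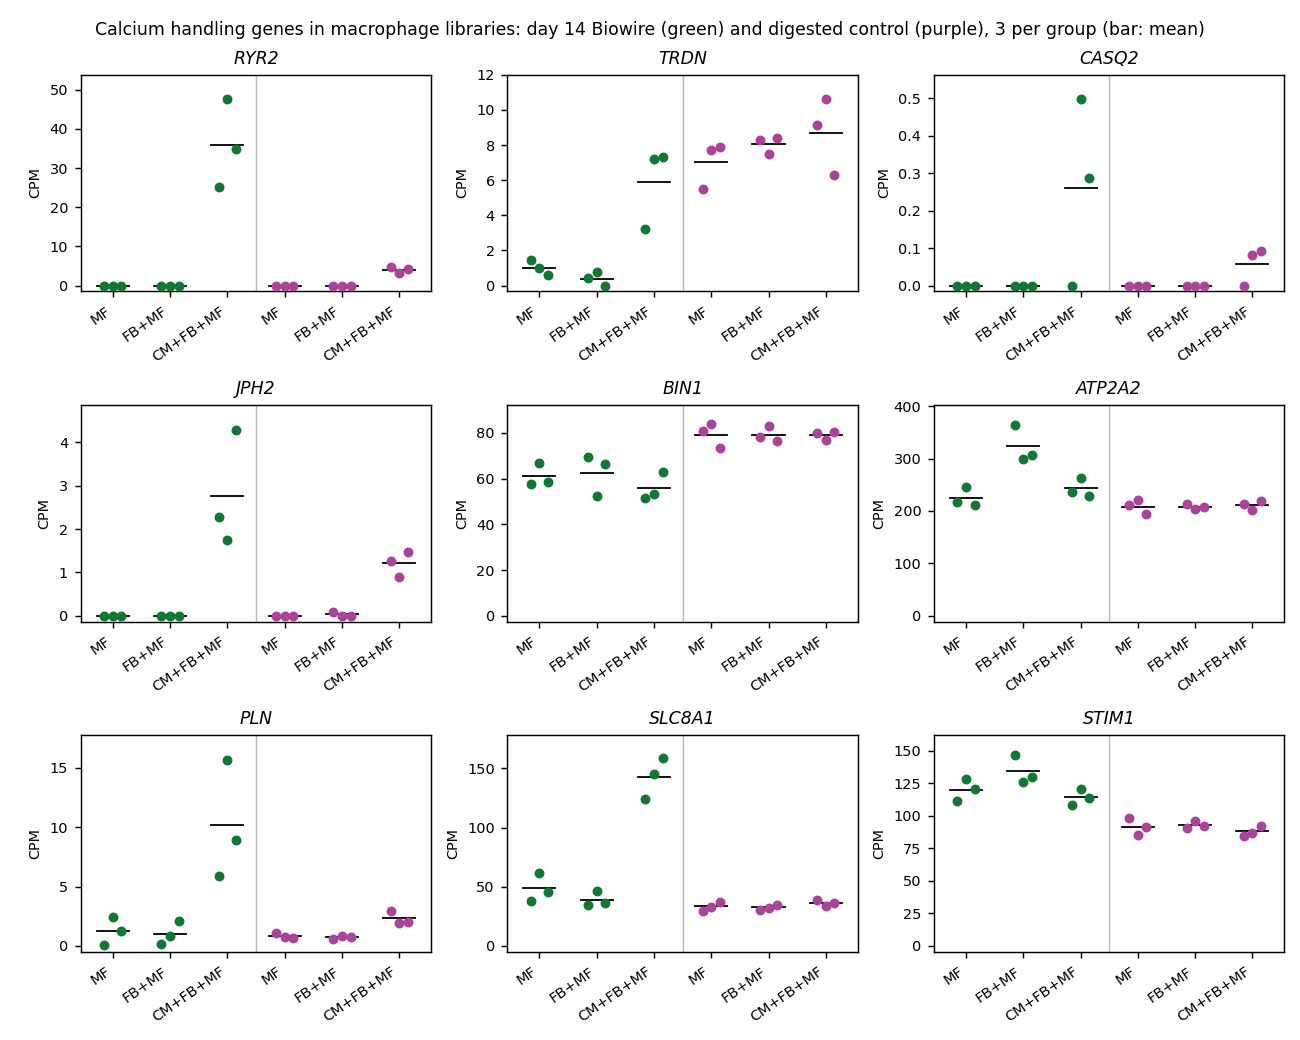
Level in CPM (vertical axis, each panel from 0) of the 9 genes with a row in the macrophage tables, by tissue combination, for day 14 Biowire macrophages (green) and digested controls (purple), with 3 libraries per group and a bar for the mean. RYR2 is at 0 in the groups without cardiomyocytes and between 25.1 and 47.5 CPM in CM+FB+MF Biowires, BIN1 is read in every library, and the settings are from separate tables.

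Cardiomyocyte markers moved with these results. All 12 were called higher in CM+FB+MF than in FB+MF Biowire macrophages, beside 16.4% of all genes tested. Their sum was 24.0 to 66.0 CPM in FB+MF, with MYL2, MYL7, MYL3, TNNI3 and TNNC1 at 0, and 1207 to 2865 CPM in CM+FB+MF, with none at 0. The markers at 0 in FB+MF were also at 0 in MF, so they met the filter only through CM+FB+MF. Nothing is read from the count of markers called. For each gene the difference between CM+FB+MF and FB+MF macrophages was then set against its level in CM+FB+MF cardiomyocytes, which come from another table and another day, so the percentages are a description with no test. RYR2 stood at 2.40 ± 0.752% of the cardiomyocyte level, TRDN at 1.99 ± 0.836%, PLN at 1.04 ± 0.568% and JPH2 at 0.993 ± 0.481%. The 12 markers lay between 0.812% (MYL3) and 5.06% (TNNI3), with a median of 1.18%. SLC8A1 was at 7.59, 9.44 and 10.7% in the 3 libraries, and the highest library of any marker was TNNI3 at 7.32%. With CM+FB cardiomyocytes as the denominator the lowest SLC8A1 library, at 7.54%, was below that TNNI3 library, at 7.80%, while the SLC8A1 mean of 9.16% lay above every marker's mean. CASQ2, on 6 counts, gave 4.01 ± 3.84%. ATP2A2 gave -3.34 ± 0.746%, BIN1 -28.8 ± 25.3% and STIM1 -39.0 ± 12.04%, all with a lower mean in CM+FB+MF than in FB+MF macrophages, and these 3 are not plotted. The part of cardiomyocyte RNA in these levels was not tested further.

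**Figure D4:**
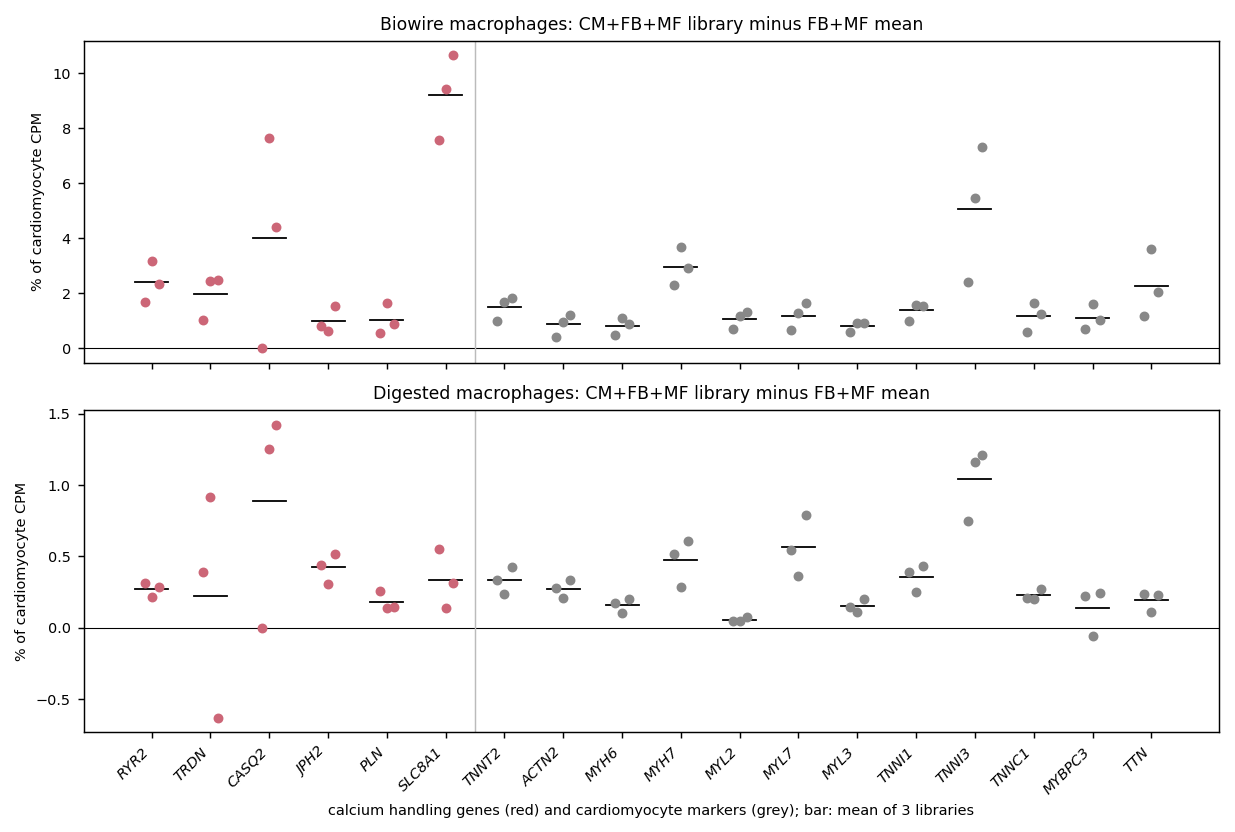
CPM of each CM+FB+MF macrophage library minus the FB+MF mean, as a percentage of the gene's mean CPM in CM+FB+MF cardiomyocytes (vertical axis), for 6 calcium handling genes (red) and 12 cardiomyocyte markers (grey), with a bar for the mean of 3 libraries. In the Biowire setting (top) SLC8A1 lies at 7.59 to 10.7% and the markers' means at 0.812 to 5.06%; in the digested setting (bottom, another scale) SLC8A1 lies within the range of the markers.

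Among the digested controls RYR2 was again at 0 counts in MF and FB+MF, and at 4.70, 3.18 and 4.26 CPM in CM+FB+MF. That was at least 42.4-fold higher than in FB+MF and at least 45.3-fold higher than in MF. JPH2 had 14, 11 and 16 counts in CM+FB+MF, 1 count in FB+MF and 0 in MF, at least 13.6-fold higher than in MF, and did not pass the filter. PLN was at 1.12, 0.786 and 0.691 CPM in MF, at 0.584, 0.873 and 0.739 CPM in FB+MF and at 2.98, 1.96 and 2.04 CPM in CM+FB+MF, with no overlap. PLN met the filter, 0.926 CPM in at least 3 libraries, only through the CM+FB+MF group, with 1 library elsewhere at that level, so its call against MF (edgeR adjusted p = 0.0343) is not read as a result. Against FB+MF it was not called (edgeR adjusted p = 0.109).

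In these controls 1 of the 9 genes, RYR2, was called in CM+FB+MF against FB+MF, beside 0.239% of 12960 genes, and 2, RYR2 and PLN, against MF, beside 2.69%. Between FB+MF and MF 0 of the 9 were called and 1.6% of all genes, and 0 of the 6 genes with an estimate had an unadjusted edgeR p under 0.05. DESeq2 also called 0. RYR2 and PLN passed the filter only through the group where they were high, so nothing is read from these counts. The other genes differed little between combinations. ATP2A2 stood at 209 ± 13.4, 208 ± 4.61 and 212 ± 8.77 CPM in MF, FB+MF and CM+FB+MF. BIN1 stayed between 73.2 and 83.9 CPM and STIM1 between 84.7 and 97.9 CPM over the 9 libraries. SLC8A1 was at 33.3 ± 3.99, 32.5 ± 2.46 and 36.3 ± 2.36 CPM. Its groups overlapped, with 0.16 ± 0.10 on the log2 scale for CM+FB+MF against FB+MF, which did not pass in edgeR.

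TRDN was at 5.50 to 10.6 CPM in the 9 digested libraries, those without cardiomyocytes included. Its groups overlapped, with 7.03 ± 1.33 CPM in MF, 8.05 ± 0.507 CPM in FB+MF and 8.67 ± 2.18 CPM in CM+FB+MF. Biowire MF and FB+MF macrophages had 0 to 1.45 CPM, but levels were not tested across tables. Antisense genes are annotated over TRDN, and which strand its reads came from is not known here. Cardiomyocyte markers in the digested controls summed to 37.9 to 45.1 CPM in FB+MF, with MYL2, MYL3, TNNI3 and TNNC1 at 0, and to 216 to 398 CPM in CM+FB+MF. Relative to the cardiomyocyte level the digested difference was 0.270 ± 0.0523% for RYR2, 0.181 ± 0.0649% for PLN, 0.423 ± 0.106% for JPH2 and 0.334 ± 0.210% for SLC8A1. The markers there ranged from 0.0549% to 1.04%, with a median of 0.251%, so that these 4 genes lay among them.

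Whether a difference between combinations was itself different in Biowires and in digested controls was tested as an interaction on genes present in both macrophage tables. For CM+FB+MF against FB+MF, 3 of the 6 genes with an estimate were called, 2 above 0 and 1 below, beside 28.4% of 14381 genes, 13.2% above 0 and 15.1% below. The SLC8A1 difference was larger in Biowires by 1.68 ± 0.20 on the log2 scale (edgeR adjusted p = 3.54e-06). TRDN gave 3.75 ± 0.65 (edgeR adjusted p = 0.000219), or 4.56 without Biowire FB+MF replicate 2. TRDN averaged 0.384 CPM in Biowire FB+MF and 8.05 CPM in digested FB+MF macrophages. A log2 interaction depends on such unlike starting levels, so no larger gain of TRDN in Biowires is read from it. For ATP2A2 the interaction was -0.47 ± 0.13 (edgeR adjusted p = 0.0104), a fall in Biowires and no change past the test in the controls. PLN gave 1.63 ± 0.95 (edgeR adjusted p = 0.212), and 2.66 with adjusted p = 0.0497 without Biowire FB+MF replicate 3. For RYR2 and JPH2 no interaction could be estimated, because both FB+MF groups were at or near 0. For FB+MF against MF, ATP2A2 was the 1 call, at 0.57 ± 0.13 (edgeR adjusted p = 0.0112), beside 4.84% of all genes, 2.72% above 0 and 2.12% below. Both ATP2A2 interactions use the same FB+MF libraries, so they are not separate results.

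Other calcium genes also differed between Biowire macrophage groups. Of 54 tested in CM+FB+MF against FB+MF, 9 were higher and 20 lower, beside 16.4% and 19.1% of all genes. Those higher include SPEG, at 8.34 CPM in CM+FB+MF, 0.0536 CPM in FB+MF and 0.365 CPM in MF. SPEG met the filter of 0.971 CPM in at least 3 libraries only through CM+FB+MF, so nothing is read from the count of genes higher. All 6 reticulum buffers tested were lower, led by the reticulocalbin family members RCN1 (47.8 to 16.4 CPM, -1.58 ± 0.19, edgeR adjusted p = 3.45e-05) and CALU (613 to 343 CPM, -0.88 ± 0.10). The inositol trisphosphate receptor ITPR1 fell from 129 to 35.97 CPM (-1.88 ± 0.17, edgeR adjusted p = 1.88e-06) and the skeletal muscle receptor RYR1 rose (0.82 ± 0.27). The plasma membrane pump ATP2B4 rose from 58.1 to 139 CPM (1.22 ± 0.14). Store-operated entry gave 0 higher and 3 lower of 5, among them ORAI2 (-0.78 ± 0.17) and SARAF (-0.54 ± 0.10). In the digested controls the same comparison gave 1 call among 47, beside 0.239% of all genes. It was HRC, a histidine-rich calcium binder of the reticulum (0.191 to 2.35 CPM, 3.54 ± 0.54). HRC averaged 0.0329 CPM in digested MF, and the filter asked for 0.926 CPM in at least 3 libraries. HRC met it only through CM+FB+MF, so this call is not read as a result. In Biowire FB+MF against MF macrophages 7 were higher and 2 lower of 54, beside 4.03% and 2.14% of all genes, among them the reticulum protein ASPH (158 to 265 CPM, 0.79 ± 0.16) and the chaperones CANX (0.37 ± 0.09) and HSPA5 (0.72 ± 0.19).

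Finally, the pattern of each gene over the 8 group means of log2(CPM + 1) was compared with 12836 genes that reached 5 CPM in a group. The values below are Pearson r over 8 points that share cell type and table, given as a description with no test. RYR2 was most like the cardiac myoglobin gene MB (r = 0.9988) and HSPB7 (0.9987). JPH2 was most like PCDH7 (0.9999), PLN like GCOM1 (0.9991), TRDN like TRIOBP (0.9988) and CASQ2 like LAMC3 (0.9995). ATP2A2 was nearest to AMIGO1 (0.9992) and SLC8A1 to MPPED2 (0.9993). The lowest best matches were those of BIN1 with PTPN9 (0.9816) and STIM1 with SFT2D2 (0.9895).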

How the data were processed

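Raw read counts per gene were deposited by the authors in 3 tables: Biowire macrophages (19206 rows), digested controls (18771) and cardiomyocytes (21991). Libraries were made from total RNA with a stranded Takara SMARTer kit, per the labels' protocols. STAR 2.7.9a, HTSeq 0.11.0, DESeq2, R 4.3.2 and hg19 are named in the submitters' processing notes, which leave the counter's strand setting unstated. Normalized tables, also deposited, played no part. The tables repeat column names, so columns were assigned to groups through the table that each sample's description names, and replicate numbers follow the column headers.

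The 10 genes and the other gene lists were chosen with earlier results of these data known. Each table was fitted whole with edgeR 4.0.16 (R 4.3.3): TMM normalization, filterByExpr, quasi-likelihood F tests on all groups of the table, and Benjamini-Hochberg adjustment at 0.05 over all genes tested. The SE of a log2 fold change is its size divided by the square root of F. Interactions used the 17919 genes shared by both macrophage tables, with 9 comparisons in all. Where a group was at 0, a bound was computed from 3 counts over the group. Depth was 6983800 to 30936910 counts per library, and precision depends on the spread between libraries of a group as well as on depth. Lengths are GENCODE v29 exon unions matched by symbol. Alternatives were RLE size factors, DESeq2 1.42.0, only the compared groups, no filter, a block for the replicate number, leaving out each library, TMM-scaled CPM, the longest transcript as length and, chosen after seeing the data, CM+FB cardiomyocytes as denominator. Fits were tested on simulated data. Besides the 10 genes, up to 3 genes per list (cardiomyocytes) or 2 (macrophages) with the smallest p past the threshold could be named, and for likeness the 2 genes with the highest r. For 1 gene that this rule names, the result is not reported here.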

Additional observations from a re-analysis of the deposited data

Results flagged for a closer look

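In CM+FB cardiomyocytes STIM1 had 1 library apart from the others, replicate 2 at 80.1 CPM against 66.7 to 68.1 CPM, a gap that made up 0.895 of the range. How often chance gives such a gap was not computed, and 20 groups were examined, so little is read from it. STIM1 was lower in CM+FB+MF without that library too.

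For 3 genes the difference between macrophage groups was itself different in Biowires and digested controls by edgeR's interaction test. Over all 14381 genes tested, 4.84% were called for FB+MF against MF and 28.4% for CM+FB+MF against FB+MF. ATP2A2 differed by 0.57 ± 0.13 on the log2 scale for FB+MF against MF (adjusted p = 0.0112) and by -0.47 ± 0.13 for CM+FB+MF against FB+MF (adjusted p = 0.0104). Both ATP2A2 values use the same FB+MF libraries, so they are not separate results. SLC8A1 differed by 1.68 ± 0.20 (adjusted p = 3.54e-06) and TRDN by 3.75 ± 0.65 (adjusted p = 0.000219), both for CM+FB+MF against FB+MF. TRDN stood at 0 to 0.750 CPM in the Biowire FB+MF libraries and at 7.47 to 8.40 CPM in the digested FB+MF libraries. Its interaction depends on these unlike starting levels, and no larger gain in Biowires is read from it.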

How the results depend on the processing

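With RLE size factors, TMM-scaled CPM and the other denominator, all 82, 74 and 18 results kept their direction and side of the threshold, or moved by less than the SD. Of the digested CM+FB+MF against FB+MF genes, 53 were called with no filter (31 with it). In digested CM+FB+MF against MF, 1 of the calcium handling genes was called in place of 2 with DESeq2, with only the compared groups and with the replicate block, PLN being lost each time (adjusted p = 0.128, 0.104 and 0.0688). The replicate block also ended the JPH2 call in cardiomyocytes (-0.18, adjusted p = 0.0723). The cause of these changes was not tested. Same-numbered libraries correlated at -0.138 to 0.186 in cardiomyocytes, 0.00311 to 0.229 in Biowire macrophages and -0.205 to 0.298 in digested controls. In Biowire macrophages, where all same-numbered values were above 0, differently numbered libraries of unlike groups correlated at -0.193 to 0.12. The main fits did not take the numbers to pair samples, and whether same-numbered libraries share a batch was not tested. The longest transcript moved 6 of 10 levels per kb.

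Leaving out 1 library at a time, calls among the calcium handling genes ranged from 4 to 6 in cardiomyocytes, 0 to 1 in Biowire FB+MF against MF, 3 to 5 in Biowire CM+FB+MF against MF and 1 to 2 in digested CM+FB+MF against MF. The last 2 ranges include genes that passed the filter only through CM+FB+MF, so nothing is read from them. In the same fits 1434 to 1905 of all genes were called in cardiomyocytes. Biowire CM+FB+MF against MF gave 4346 to 5092, and digested CM+FB+MF against MF 266 to 486. All genes called ranged from 549 (without FB+MF replicate 2; 553 without MF replicate 3) to 844 in Biowire FB+MF against MF, where all libraries gave 860. Digested FB+MF against MF gave 99 (without MF replicate 2) to 180.0, with 207 from all libraries, and digested CM+FB+MF against FB+MF gave 19 (without FB+MF replicate 3; 20.0 without FB+MF replicate 1) to 72 (without CM+FB+MF replicate 2).

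Some log2 differences that never passed changed sign. In Biowire FB+MF against MF, PLN ranged from -1.36 to 0.53 and BIN1 from -0.016 to 0.20. The PLN difference there rests on 1 to 33 counts per library (SE 0.81), so it is undetermined and no lack of difference is read from it. In digested FB+MF against MF the ranges were -0.047 to 0.034 for ATP2A2, -0.13 to 0.058 for SLC8A1, -0.053 to 0.033 for BIN1 and -0.039 to 0.050 for STIM1. In digested CM+FB+MF against FB+MF they were -0.022 to 0.038 for BIN1 and -0.073 to 0.31 for TRDN, and against MF -0.021 to 0.060 for ATP2A2 and -0.05 to 0.036 for BIN1. For the interaction of FB+MF against MF, PLN ranged from -1.14 to 0.77 (SE 1.01, also undetermined) and BIN1 from -0.00041 to 0.21. Depth limits SLN (16 to 106 counts), CASQ2 in macrophages (0 to 4 counts) and JPH2 there (0 to 30.0 counts).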
